A study of Mus musculus with 2 samples.

Results

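Imprinted fetal growth genes were followed through the development of the mouse esophagus, gastroesophageal squamocolumnar junction (GE-SCJ) and stomach. The 10 genes were Igf2, H19, Dlk1, Meg3, Peg3, Plagl1, Cdkn1c, Mest, Grb10 and Ndn, chosen by name as imprinted genes tied to fetal growth, and all 10 were found among the 19550 genes counted. The tissue came from wild type C57BL/6 mice at embryonic day 15 (E15), E19, pup (day 2) and adult (week 8). According to the labels, 6 mice were used at E15, 2 at E19, 2 pups and 3 adults, without genetic change or treatment. The methods of the study give another number of mice, so the number behind each pool is uncertain. Cells of the mice were pooled within each region and stage, marked with a CellPlex tag and counted in a single 10x Genomics capture. 11 tags held cells, since adult stomach gave none here. In all, 7808 cells with 107865155 unique molecular identifiers (UMIs, counts of captured RNA molecules) were analysed in 8 cell classes. Because a tag was a single pooled sample, no value had a biological replicate and no test between stages could be made.

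An imprinted gene is transcribed mainly from the copy inherited from a single parent, and the choice is kept by DNA methylation laid down in egg or sperm. Igf2, Dlk1, Peg3, Plagl1, Mest and Ndn are expressed from the father's copy, H19, Meg3 and Cdkn1c from the mother's, and Grb10 from the mother's outside the brain. Many genes of the first kind promote fetal growth and many of the second restrain it. Several members are known to be turned down together in many organs after birth, as growth slows. Igf2 and H19 share an imprinted domain, as do Dlk1 and Meg3.

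The positions are those of GENCODE M21 on GRCm38. Igf2 (chr7:142650766-142666816) and H19 (chr7:142575529-142578143) lay 72.6 kb apart on the minus strand, and Cdkn1c (chr7:143458339-143461050, minus) lay a further 792 kb from Igf2. Dlk1 (chr12:109452823-109463336) and Meg3 (chr12:109541001-109571726) lay 77.7 kb apart on the plus strand. The remaining members were Peg3 (chr7:6703892-6730431, minus), Ndn (chr7:62346569-62350262, plus), Plagl1 (chr10:13060504-13131694, plus), Mest (chr6:30723547-30748465, plus) and Grb10 (chr11:11930508-12038683, minus). Of the counted genes, Igf2os overlapped Igf2, Gm44732 overlapped Cdkn1c and Copg2 overlapped Mest, each on the opposite strand, and no counted gene overlapped the other 7.

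Igf2 and H19 also host microRNAs, and their mature sequences are shown because these hosts had the largest falls in columnar epithelium by the pup stage. Sequences are from RefSeq on GRCm38.p6, written 5′ to 3′ with the seed (bases 2 to 8) in capitals. The counts below measure the host RNAs and not the microRNAs. The H19 pair lies in exon 1 of H19 (chr7:142577112-142577133 and chr7:142577078-142577099), and the Igf2 pair lies in an intron of Igf2 (chr7:142654968-142654989 and chr7:142654932-142654952), all on the minus strand. No seed was shared among the 4.
mmu-miR-675-5p: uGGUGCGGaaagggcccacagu
mmu-miR-675-3p: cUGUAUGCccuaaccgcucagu
mmu-miR-483-5p: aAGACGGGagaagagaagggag
mmu-miR-483-3p: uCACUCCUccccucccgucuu

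A pair of promoters is shown for members that moved differently by class. Grb10 fell at least 4-fold in both epithelia by the pup stage, while Peg3 rose in pup smooth muscle and fell in columnar cells. RefSeq promoters (GRCm38.p6, 250 bases before to 50 after a start) were matched for 8 of the 10 genes, without H19 and Cdkn1c. 12 of the 15 promoters of these 8 genes had more than 7 CG, the median, against 48.6% of all 32851 promoters. The 15 are not independent. The Mest promoters at chr6:30737800-30738099 and chr6:30737803-30738102 are nearly the same stretch but were counted apart, each with 17 CG. Grb10 has 2 promoters in the table. The one shown (chr11:12037371-12037670, minus strand) has the most CG of the 15, namely 45, a number reached by 1.93% of all promoters. The other (chr11:12027922-12028221, minus strand) has 9 CG, a number reached by 45.8%. The Peg3 promoter (chr7:6730370-6730669, minus strand) has 13 CG, a number reached by 37.9%. It also holds GGGGCCCC, which reads the same on both strands and resembles the letters known to be bound by Plagl1. This motif was in 1 of the 15 and in 1.08% of all promoters. CG is in capitals, and no methylation was measured here.
Grb10: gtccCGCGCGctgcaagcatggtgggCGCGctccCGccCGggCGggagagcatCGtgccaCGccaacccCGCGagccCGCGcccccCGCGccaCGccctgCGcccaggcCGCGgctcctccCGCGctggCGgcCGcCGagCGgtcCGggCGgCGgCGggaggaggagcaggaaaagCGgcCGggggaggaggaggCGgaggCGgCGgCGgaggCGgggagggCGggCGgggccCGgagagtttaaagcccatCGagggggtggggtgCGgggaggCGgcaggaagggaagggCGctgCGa
Peg3: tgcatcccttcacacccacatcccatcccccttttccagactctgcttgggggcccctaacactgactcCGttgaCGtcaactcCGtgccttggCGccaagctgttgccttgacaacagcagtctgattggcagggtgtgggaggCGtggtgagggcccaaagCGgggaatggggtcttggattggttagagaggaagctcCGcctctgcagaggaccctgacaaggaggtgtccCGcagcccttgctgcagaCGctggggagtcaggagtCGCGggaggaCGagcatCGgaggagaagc

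The class labels were the authors' own, 9 in number, with both squamous labels joined here. Markers set the classes apart: the summed level of the immune markers was 4991 CPM (UMIs per 1000000 UMIs of the class) in immune cells and at most 22.2 CPM elsewhere, and that of the endothelial markers was 3693 CPM in endothelial cells and at most 42.8 CPM elsewhere. A second stromal label held 1583 CPM of mesothelial markers, against at most 78.1 CPM in other classes, and was kept apart. The tags held 2302227 to 20070615 UMIs, and the median cell held 10424.5. Levels below are in CPM, from the sum of a gene's UMIs in all cells of 1 class at 1 stage, with the exact 95% Poisson interval in brackets. These intervals cover counting error only. They do not cover differences between mice, which could not be measured.

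Some pup and adult cells lay among prenatal cells. Among the 15 nearest cells by overall expression, searched without the imprinted genes, most were from E15 or E19 for 197 of 1573 pup cells and 44 of 478 adult cells. Such cells made up 12 of 26 adult columnar cells and 11 of 46 adult stromal cells, and they held more H19 than the other adult cells (2763 against 246 CPM). What these cells are was not tested. Where leaving them out moved a printed level of a class by over 1.5 times, the level without them is given too. Immune cells served as the background level, such as free RNA from other cells gives. They were shallower than columnar cells (in the pup, medians of 5935 and 26581 UMIs). The part of depth in comparisons with them was not tested. Of the 86 pup immune cells, 38 had mostly prenatal neighbours, so the pup background itself rests in part on such cells.

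At E15 the 10 genes were spread over tissue layers in different orders. Dlk1, Meg3, Cdkn1c and Grb10 were highest in stromal cells, that is, fibroblast-type cells. H19 was highest in squamous cells, Mest in endothelial cells, and Igf2, Peg3, Plagl1 and Ndn in the second stromal label, although there the interval of Plagl1 overlapped that of stromal cells and that of Ndn overlapped that of neural cells. In stromal cells, all 10 were at least 2-fold above immune cells at E15, E19 and pup, where 29%, 26.2% and 24.3% of all genes tested were. In columnar epithelium, 8 of 10 were so at E15 (21.4% of all genes), 4 at E19 (18.1%) and 2 in the pup (20.3%). The pup share was near that of all genes. The pup pair was Cdkn1c and Ndn, and Ndn was 2.06-fold above a single immune UMI, with an interval on the log2 scale of -1.48 to 6.37. The pup number depended on the immune cells: it was 4 without a single immune cell rich in Meg3, with Meg3 at 2.16-fold and Plagl1 at 2-fold above immune cells, and it was 3 (Meg3, Peg3 and Cdkn1c) without cells that had mostly prenatal neighbours. The stromal number in the pup was 10 in both cases. Shares of all genes in these cases are not given, so the moves cannot be set against them. No columnar cell was left out with the immune cell rich in Meg3. A single pup columnar cell held 148 of the 727 columnar Meg3 UMIs after thinning to 5000 UMIs. The median stromal cell, thinned to 5000 UMIs, held UMIs of 8 members at E15 and E19, of 7 in the pup and of 5 in the adult. Cells with fewer UMIs were dropped from these medians (86, 194, 201 and 21 by stage). Unthinned, the medians were 9, 9, 7 and 4. Immune cells thinned in the same way held UMIs of 1 member at each of the first 3 stages.

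**Figure D1:**
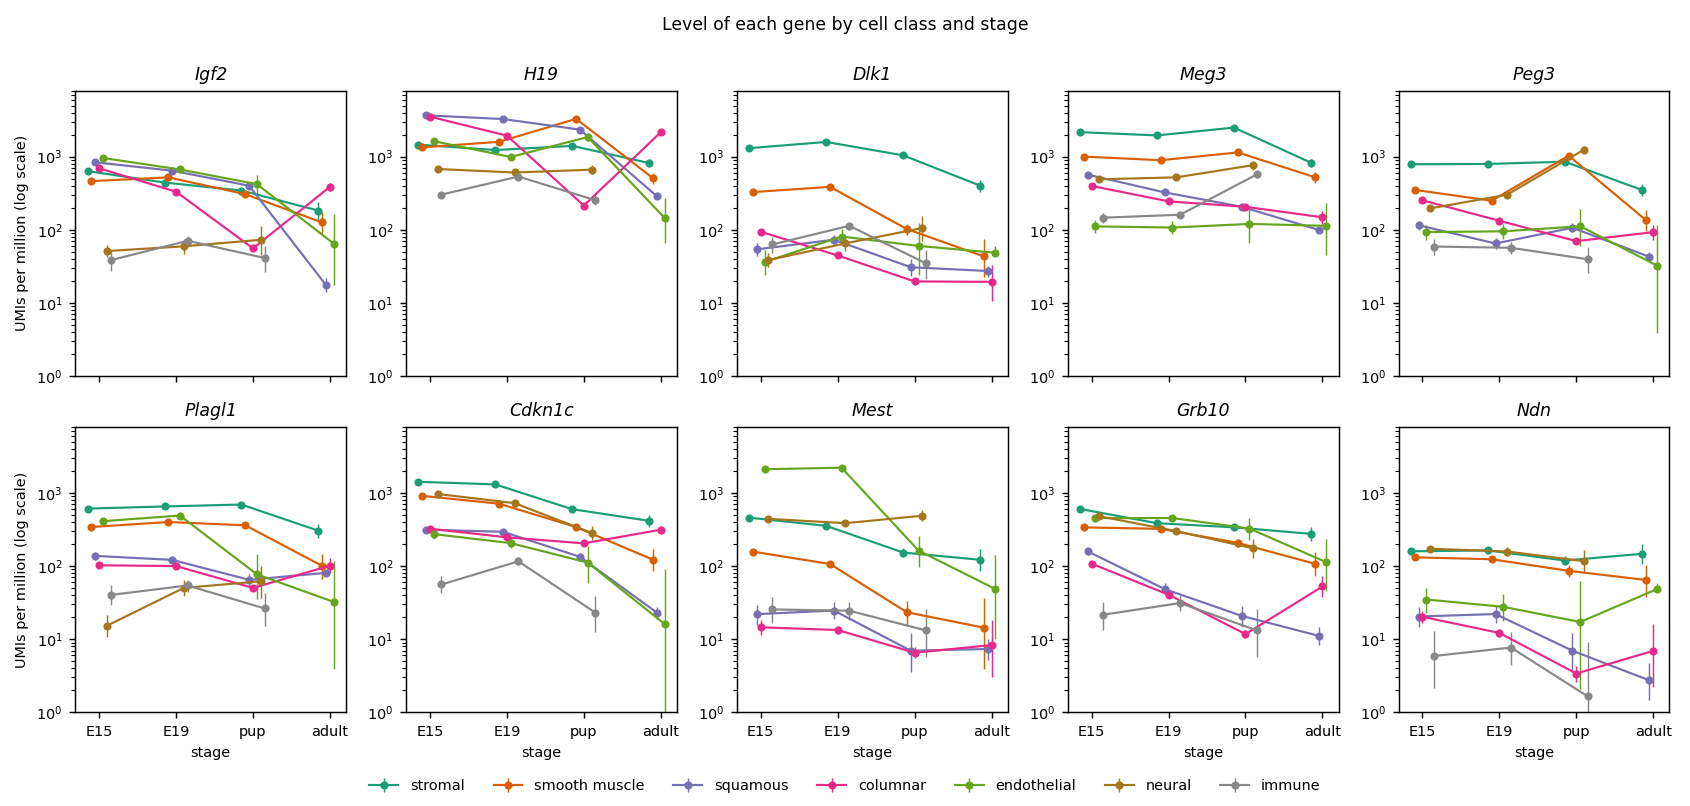
Level of each of the 10 genes (CPM, log axis) at E15, E19, pup and adult, with a line for each cell class and bars for exact 95% Poisson intervals. Sums of 0 stand at the level of 3 counts (Dlk1 and Ndn in adult endothelial cells). Columnar lines fall to the pup and squamous lines to the adult for most genes, most stromal lines change little until the pup, and Mest stands apart in endothelial cells, with 2112 CPM at E15 against 163 CPM in pups.

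Counted by class, the members did not go down as 1 set. From E15 to the pup, 5 of 10 were at least 4-fold lower in columnar cells, where 4.91% of all 11751 genes tested were. The number was 1 of 10 in squamous cells (2.25% of all genes), 1 of 10 in smooth muscle (4.06%), 0 of 10 in stromal cells (4.24%), 0 of 10 in neural cells (6.16%) and 2 of the 8 that had at least 50 UMIs in endothelial cells (4.45%). No member of the 7 tested in immune cells was 4-fold lower (0.773%). At 2-fold, 8 members were lower in columnar cells (21.4% of all genes), 7 in squamous cells (23%), 3 in smooth muscle (12.9%), 2 in stromal cells (14.9%), 2 in neural cells (21.5%), 4 of 8 in endothelial cells (18.3%) and 1 of 7 in immune cells (5.68%). No member was at least 2-fold higher in the pup in stromal (9.3% of all genes), columnar (9.37%) or squamous cells (7.2%). Below, a gene is said to fall or rise where its level differed at least 2-fold. The log2 ratio of E15 over pup had a median over the members of 2.06 in columnar cells (0.38 over all genes), 1.16 in squamous cells (0.54), 0.60 in smooth muscle (0.07), 0.37 in stromal cells (0.16) and -0.33 in neural cells (0.26). All genes together thus stood slightly higher at E15 in most classes, and the ratios of members are to be read against these medians.

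By the adult, 6 of 10 members in squamous cells (4.43% of all genes) and 6 of 8 in endothelial cells (7.68%) were at least 4-fold below E15. The number was 3 of 10 in smooth muscle (3.97%), 1 of 10 in columnar cells (1.19%) and 0 of 10 in stromal cells (2.44%). At 2-fold it was 8 in squamous cells (22.1%), 7 of 8 in endothelial cells (24.1%), 9 in smooth muscle (15.3%), 5 in columnar cells (7.25%) and 8 in stromal cells (13.7%). The 21 adult endothelial cells held only 35 UMIs of the 10 genes together, against 4728 at E15. The 8 members tested there thus passed the minimum of 50 UMIs through the E15 cells, and the endothelial numbers are a description only. Without the adult cells that had mostly prenatal neighbours, the 4-fold numbers went up, from 0 to 6 of 10 in stromal cells (3.99%), from 3 to 7 in smooth muscle (5.17%) and from 1 to 4 in columnar cells (5.2%). The columnar number then rests on 14 adult cells, under the minimum of 20 used elsewhere. With esophagus and GE-SCJ alone, since the adult had no stomach cells, the columnar number at 4-fold was 2. The share of all genes in that setting is not given, so whether this move is particular to the members was not tested. The pup and adult comparisons share the E15 cells and are not independent. Adult neural and immune cells, 13 and 6 in number, were too few to compare. Between E15 and E19, 0 of 10 were at least 2-fold lower at E19 in stromal cells (1.13%), smooth muscle (1.35%), neural cells (2.6%) and endothelial cells (0.541%). In columnar cells 3 of 10 were (4.18%), namely Igf2, Dlk1 and Grb10, and in squamous cells 1 was (4.68%), namely Grb10, at 159 and 48.5 CPM. Columnar Dlk1 at E19, 44.5 CPM, lay below the 113 CPM of immune cells. At least 2-fold higher at E19 were 1 of 10 in neural cells (3.52%), Plagl1 at 15.3 and 50.3 CPM, and 1 in endothelial cells (1.12%), Dlk1 at 36.2 and 80.8 CPM. In stromal cells (2.28%), smooth muscle (1.56%), columnar cells (3.17%) and squamous cells (4.05%) none was. Neural Plagl1 and endothelial Dlk1 were not above immune cells at E15 or E19. At E19 their log2 ratios over immune cells were -0.11 (-0.58 to 0.35) and -0.49 (-0.90 to -0.09), so both changes lay at or below background.

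**Figure D2:**
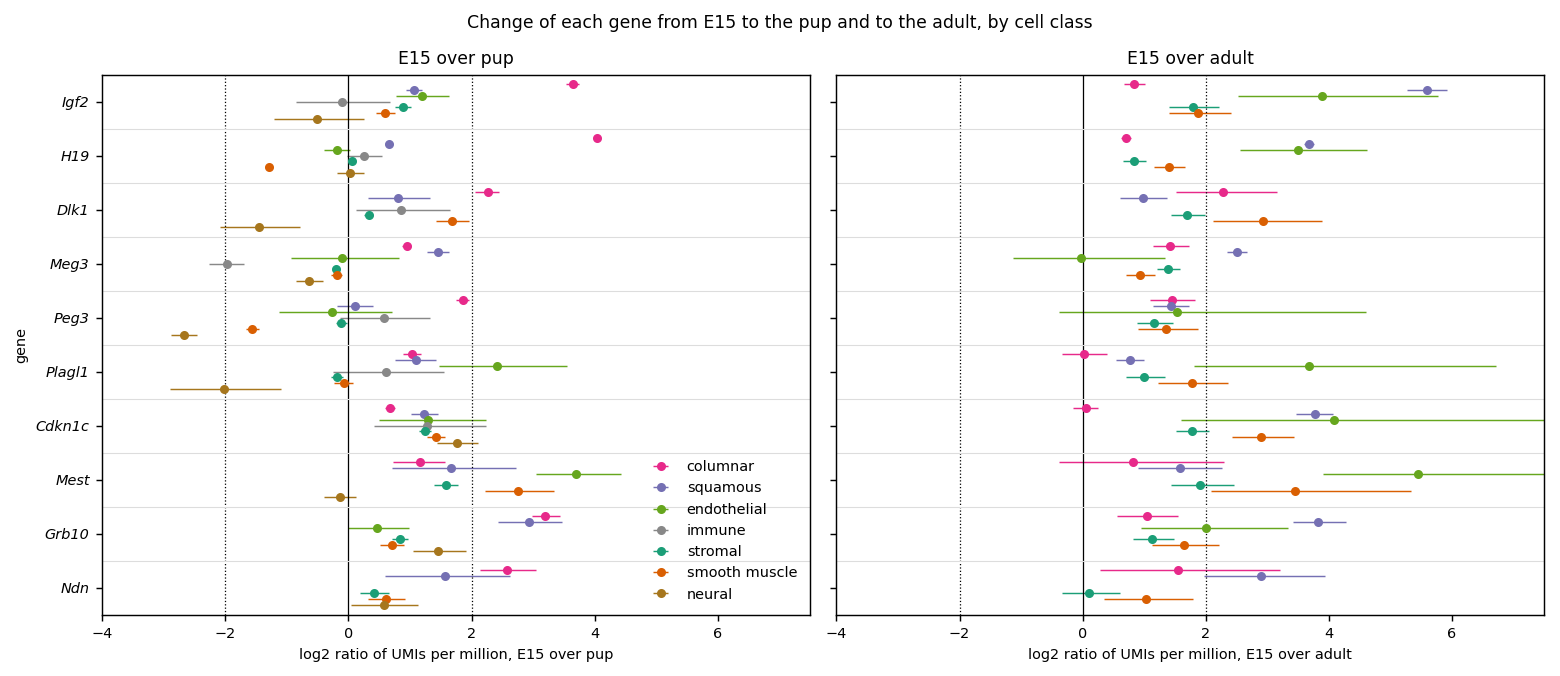
Log2 ratio of E15 over pup (left) and E15 over adult (right) for each gene, with a point for each cell class and bars for 95% counting intervals. Dotted lines mark 4-fold, genes with under 50 UMIs are not drawn, and bars are clipped at 7.5. In the pup the columnar points of H19 (4.04) and Igf2 (3.64) lie far right, and the neural and smooth muscle points of Peg3 (-2.67 and -1.56) lie left of zero.

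Igf2, the fetal insulin-like growth factor, was found at 694 CPM (672 to 716) in E15 columnar cells, 332 CPM (323 to 340.3) at E19 and 55.7 CPM (52.5 to 59.1) in the pup. Igf2 thus fell in columnar cells by a log2 ratio of 3.64 by the pup stage, to a level that was 1.35 times that of pup immune cells, with an interval on the log2 scale of -0.13 to 1.07. In squamous cells the fall came later, with 838 CPM (798 to 880.3) at E15, 643 at E19, 401 (371 to 432) in the pup and 17.4 (13.9 to 21.6) in the adult, 48.1-fold below E15. Igf2 in stromal cells was at 635 CPM (619.9 to 649), 443, 344 (315 to 375) and 183 (136 to 241) CPM over the 4 stages, a log2 ratio of 0.88 from E15 to pup. In endothelial cells it was at 959, 668, 421 and 64.6 CPM, the pup being at 234 CPM (107 to 445) in the 9 cells without mostly prenatal neighbours. Igf2 in neural cells, at 51.2 to 72.9 CPM up to the pup (46.4 in the pup without such cells), lay close to immune cells, at 38.3 to 70.6 CPM.

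H19, the long noncoding RNA made next to Igf2, showed the widest spread of changes. H19 was at 3528 CPM (3478 to 3578) in E15 columnar cells, 1939.6 CPM (1919 to 1960.4) at E19 and 214 CPM (208 to 221) in the pup, 16.5-fold below E15. The pup columnar level of H19 lay below that of pup immune cells, 254 CPM (215 to 297). Without cells that had mostly prenatal neighbours, pup H19 was at 137 CPM (132 to 142) in columnar cells, 25.8-fold below E15, and at 121 CPM (87.4 to 163) in immune cells, so the order turned and the intervals overlapped. After thinning to 5000 UMIs, 97% of E15 and 35.7% of pup columnar cells held an H19 UMI, against 52.2% and 39.7% of immune cells. Unthinned, the shares were 98% and 76.8% of columnar cells (median depths 24893 and 26581 UMIs) against 69.5% and 48.8% of immune cells (median depths 11504 and 5935 UMIs). Without cells that had mostly prenatal neighbours, the thinned pup shares were 34.3% (30.5 to 38.2) of columnar and 34.1% (20.1 to 50.6) of immune cells. The pup columnar share of H19 was thus not above background in either case.

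In squamous cells H19 stood at 3676 CPM (3591 to 3763) at E15, 3271 at E19, 2343 (2272 to 2417) in the pup and 288 (273 to 303) in the adult. The change came between pup and adult, and the log2 ratio of H19 was 0.65 for E15 over pup and 3.68 for E15 over adult. In stromal cells H19 was at 1461, 1232, 1405 (1345 to 1467) and 818 (715 to 931) CPM, a log2 ratio of 0.06 from E15 to pup, and the adult level was 207 CPM without the adult cells that had mostly prenatal neighbours. In smooth muscle H19 went the other way: 1341 CPM (1308 to 1376) at E15, 1597 at E19 and 3289 (3189 to 3391) in the pup, 2.45-fold above E15, then 507 (427 to 598) in the adult, or 161 without such cells. Smooth muscle had 2 members at least 2-fold higher in the pup, H19 and Peg3, and 11.2% of all genes were. The endothelial level of H19 was 1629, 990.0, 1857 and 145 CPM. Neural H19 was level, at 677, 608 and 664 CPM up to the pup, beside 303, 535 and 254 CPM in immune cells.

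The H19 rise in smooth muscle reached 2-fold in the GE-SCJ only. In the stomach H19 was higher in the pup than at E15 by less than 2-fold, and in the esophagus it was lower. In the GE-SCJ, H19 was at 1394, 1887 and 5142 CPM (4957 to 5332) at E15, E19 and pup, and in the stomach at 1229, 1237 and 1990.2 CPM (1875 to 2111). In the esophagus H19 was at 1426, 1585 and 401 CPM (294 to 535), but the pup value comes from 22 cells, and 14 of them had mostly prenatal neighbours, against 21 of 119 in the GE-SCJ and 15 of 113 in the stomach. Without such cells, pup H19 was at 343 CPM (192 to 565.5) in the 8 esophageal cells left, 5817 CPM in the GE-SCJ and 2058 CPM in the stomach. The esophageal value is thus from very few cells either way. The pup smooth muscle also held 67 cells with more UMIs of mural markers (Rgs5, Kcnj8, Abcc9, Notch3 and Vtn, of the cells around vessels) than of contractile markers, against 5 at E15. Among contractile-marker cells alone, H19 in the pup was still at 5124 CPM in the GE-SCJ, 2356 in the stomach and 419 in the esophagus. Without the 50 pup smooth muscle cells that had mostly prenatal neighbours, H19 in the pup was at 3754 CPM, so that the rise was as large without them.

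**Figure D3:**
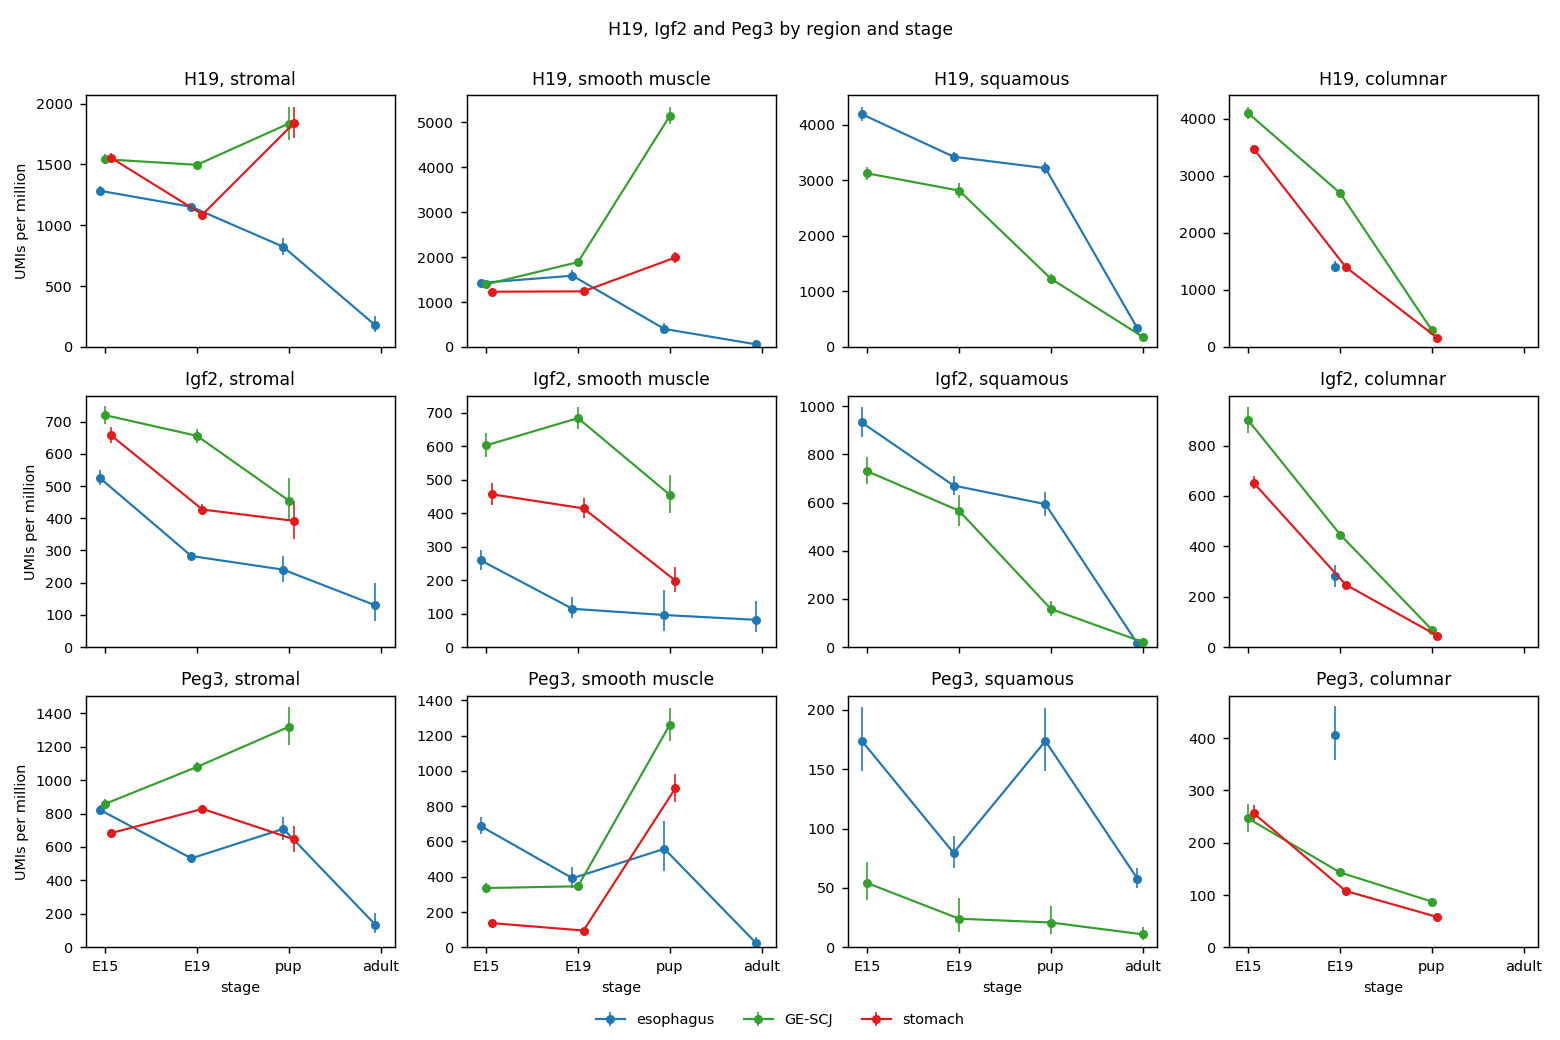
Levels of H19, Igf2 and Peg3 (CPM, linear axes from 0) by stage in stromal, smooth muscle, squamous and columnar cells, with a line for each region and bars for exact 95% Poisson intervals. Groups under 20 cells are not drawn. In smooth muscle the GE-SCJ line of H19 climbs to 5142 CPM in the pup while the esophageal line drops to 401 CPM, and in squamous cells Peg3 stays higher in the esophagus.

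Region also moved Igf2 and H19 within other classes. Stromal Igf2 was lowest in the esophagus at each stage, at 526, 283 and 241 CPM at E15, E19 and pup, against 720.0, 656 and 455 CPM in the GE-SCJ and 659, 427 and 392 CPM in the stomach. The intervals of the GE-SCJ and stomach overlapped in the pup, and those of the esophagus overlapped with neither at any of these stages. Stromal H19 in the pup was at 823 CPM (754 to 898) in the esophagus, 1837 (1705 to 1976) in the GE-SCJ and 1843 (1719 to 1974) in the stomach. H19 was the single member at least 2-fold higher in pup stomach than in pup esophageal stroma (2.78% of all genes), and no member was 2-fold higher at E15 (3.46%) or E19 (5.22%). Which member this was depended on the cells with mostly prenatal neighbours. Without them, pup stromal H19 was at 1357 CPM in the stomach and 806 CPM in the esophagus, under 2-fold. Cdkn1c was then at 755 and 346 CPM, over 2-fold. Columnar H19 was higher in the GE-SCJ than in the stomach at E15 (4099 and 3475 CPM), E19 (2699 and 1404 CPM) and pup (292 and 156 CPM), or 151 (143 to 160) and 127 (120.4 to 134) CPM in the pup without cells that had mostly prenatal neighbours.

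Pup squamous H19 was uneven as well, at 3219 CPM in the esophagus and 1229 CPM in the GE-SCJ. Within pup esophageal squamous cells, the 56 cells of the first squamous label held 5421 CPM of H19 and 948 CPM of Igf2, and the 29 cells of the second label held 89.6 CPM of each. Cdkn1c ran the opposite way there, at 94.6 CPM in the first and 344 CPM in the second label. These labels were made from the same cells, so the values are a description.

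H19 and Igf2 did not keep a fixed proportion. The number of H19 UMIs per Igf2 UMI was 2.30 in stromal cells at E15 and 4.09 (3.71 to 4.51) in the pup. It was 2.90 in smooth muscle at E15 and 10.7 (9.65 to 11.9) in the pup, and 4.39 in squamous cells at E15 and 16.5 (13.2 to 20.9) in the adult. In columnar cells, where both genes fell, H19 per Igf2 was 5.09 at E15 and 3.85 (3.60 to 4.12) in the pup. These are ratios of 3′ tag counts, so they are read only between groups and not as relative numbers of molecules. In pup columnar cells neither gene was clearly above immune cells, with log2 ratios over them of 0.44 (-0.13 to 1.07) for Igf2 and -0.24 for H19. The part of background in the pup columnar proportion was not tested.

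**Figure D4:**
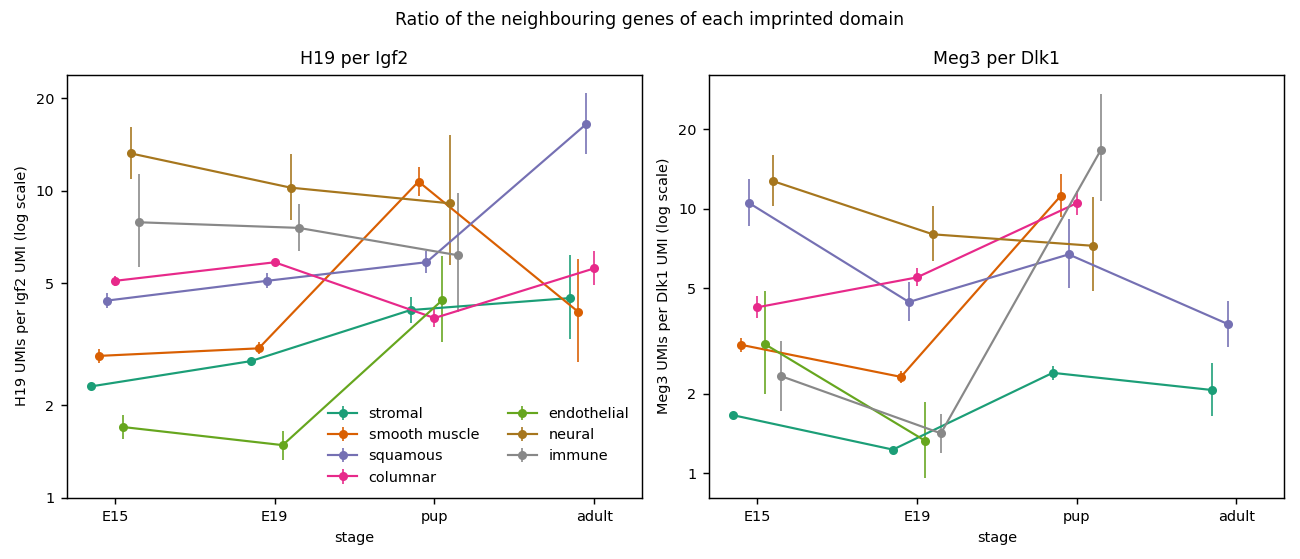
UMIs of H19 per UMI of Igf2 and of Meg3 per UMI of Dlk1 (log axes) by stage, with a line for each cell class and bars for 95% intervals, drawn where both genes had at least 20 UMIs. H19 per Igf2 climbs in smooth muscle from 2.90 at E15 to 10.7 in the pup, while the columnar line moves between 3.85 and 5.85.

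Dlk1, a Notch-related membrane protein of fetal mesenchyme, was mainly stromal. Dlk1 in stromal cells was at 1307 CPM (1286 to 1328), 1590.3, 1043 (991 to 1096) and 402 (331 to 483) CPM over the 4 stages, with the adult at 127 CPM without cells that had mostly prenatal neighbours. Dlk1 fell in smooth muscle, from 328 CPM (312 to 345) at E15 to 102 (85.2 to 122) in the pup and 43.1 (22.3 to 75.3) in the adult, and in columnar cells, from 93.9 (85.9 to 102) to 19.6 (17.7 to 21.7) CPM by the pup. Without cells that had mostly prenatal neighbours, adult smooth muscle Dlk1 was at 21.8 CPM (7.08 to 50.9). Squamous, neural and endothelial cells lay between 36.2 and 54.0 CPM at E15, not above the 62.9 CPM of immune cells, so there Dlk1 was at background. Columnar Dlk1 was 1.49-fold above immune cells at E15. It was not above them at E19 (44.5 against 113 CPM) or in the pup (19.6 against 34.6 CPM), so its fall ended at background. Most of the 104 Dlk1 UMIs of E15 columnar cells left after thinning lay in few cells, 17 of them in a single cell. Dlk1 was listed at 0 UMIs in adult endothelial cells, where the interval reaches 59.6 CPM. For ratios and figures it was set at 48.5 CPM (3 counts).

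Meg3, the noncoding RNA downstream of Dlk1, held its stromal level into the pup, at 2165 CPM (2138 to 2192) at E15, 1953 at E19 and 2499 (2418 to 2581) in the pup, before 829 (725 to 943) in the adult. In smooth muscle Meg3 was at 1003, 894, 1143 and 525 CPM, the adult being at 314 CPM without cells that had mostly prenatal neighbours. Neural Meg3 was at 491 (462 to 521), 521 and 766 CPM (666 to 877) up to the pup, and endothelial Meg3 at 107 to 120.3 CPM, not above the 146 CPM of E15 immune cells. Meg3 fell in squamous cells, from 567 CPM (534 to 602) at E15 to 206 (186 to 229) in the pup and 99.8 (91.0 to 109) in the adult. In columnar cells it was at 398, 245, 206 and 148 CPM. The immune level of Meg3 in the pup, 575 CPM, came mostly from a single esophageal cell that held 292 of the UMIs, and was 95.6 CPM (72.4 to 124) without it. Meg3 per Dlk1 was 3.06 in smooth muscle at E15 and 11.2 (9.32 to 13.5) in the pup, as Dlk1 fell and Meg3 did not.

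Cdkn1c encodes p57, an inhibitor of cyclin-dependent kinases that restrains proliferation. Cdkn1c fell by the pup in stromal cells, from 1423 CPM (1401 to 1445) at E15 and 1311 at E19 to 600.1 (561 to 641), and stood at 416 (344 to 499) in the adult, or 92.1 without cells that had mostly prenatal neighbours. It fell in smooth muscle as well, from 915 CPM (887 to 943) to 342 (310.3 to 376), and in neural cells taken as a whole, from 969.6 (929 to 1011) to 285 (225 to 355). The neural cells were not alike at both stages: those with more UMIs of the neuron markers Elavl4 and Tubb3 than of the glia marker Sox10 were 72 of 202 at E15, with 1149 CPM of Cdkn1c, and 2 of 59 in the pup. Among the 114 and 43 cells with more Sox10, Cdkn1c was at 830.4 CPM (779.9 to 883) and 293 (224 to 376). The size of the neural fall differs with the markers that split the class, so it is uncertain. Squamous Cdkn1c was at 315 CPM at E15, 134 in the pup and 23.1 (18.99 to 27.8) in the adult. Endothelial Cdkn1c was at 274, 206, 112 and 16.2 CPM, and immune Cdkn1c at 56.0, 116 and 23.0 CPM up to the pup. Columnar Cdkn1c had the smallest ratio of the members there (0.67 from E15 to pup), at 325, 247, 205 and 315 CPM. The median depth of the cells in these groups fell from E15 to the pup in stromal cells (10087 to 4258 UMIs) and was slightly higher in the pup in columnar cells (24893 to 26581 UMIs), and its part in the levels was not tested.

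Set against the authors' cell cycle phases, Cdkn1c was higher in G1 than in S or G2/M cells in 13 of 16 groups of class and stage. The levels were 1082 and 779 CPM in E15 smooth muscle, 225 and 113 CPM in pup columnar cells, 155 and 76.9 CPM in pup squamous cells, 382 and 138 CPM in E19 endothelial cells, and 873 and 451 CPM in E19 neural cells. The order was reversed in 3 groups: E19 columnar cells, with 232 CPM in G1 and 261 CPM in the others, E15 squamous cells, with 288 and 340.5 CPM, and E19 immune cells, with 72.3 and 135 CPM. In E15 neural cells the levels were near equal, at 976 and 962 CPM. The groups were counted by direction alone. In E15 neural, adult squamous (-0.08 to 1.41) and E15 immune cells (-0.37 to 1.25) the interval of the log2 ratio spanned both directions. The share of all genes higher in G1 is not given. Stromal Cdkn1c at E15 was at 1527 and 1338 CPM. The order was not particular to Cdkn1c. In G1, S and G2/M cells of E19 stroma, H19 was at 1375, 1120 and 857 CPM and Igf2 at 483, 429 and 308 CPM. In E19 columnar cells H19 was lower in G1, at 1647, 2355 and 2064 CPM. Phase calls read free RNA as well, and the phase classes differed in depth, with a median of 24647 UMIs in G1 and 34696 UMIs in the other pup columnar cells.

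Grb10, an adaptor that dampens insulin and IGF1 receptor signalling, fell in both epithelia. Grb10 in columnar cells was at 108 CPM (99.4 to 117) at E15, 40.6 at E19 and 11.8 (10.3 to 13.4) in the pup, which was not above the 13.2 CPM (5.69 to 26.0) of immune cells. In squamous cells it was at 159 CPM (141 to 178), 48.5, 20.9 (14.6 to 28.9) and 11.1 (8.34 to 14.6). Stromal Grb10 was at 605 CPM (591 to 619.8), 386, 339 (310.1 to 370.4) and 276 (218 to 345), a log2 ratio of 0.84 from E15 to pup. Neural Grb10 fell from 481 CPM (452 to 510.4) to 175 (129 to 232), and endothelial Grb10 was at 453, 455, 327 (231 to 448) and 113 (45.5 to 233) CPM.

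Mest, a protein of the alpha/beta hydrolase fold family, was highest in endothelial cells. Mest was at 2112 CPM (2010.3 to 2216) in E15 and 2219 CPM (2119 to 2323) in E19 endothelial cells, against 163 (98.3 to 255) in the pup and 48.5 (9.99 to 142) in the adult. After thinning to 5000 UMIs, all 42 E15 and all 53 E19 endothelial cells held a Mest UMI, against 10.4% and 8.73% of immune cells. Unthinned, the shares were 100% and 97.1%, at median depths of 15974.5 and 9608 UMIs, against 18.3% and 15% of immune cells at 11504 and 8891.5 UMIs. The pup and adult levels rest on 21 cells each, and 12 of the 21 pup cells had mostly prenatal neighbours. In the 9 cells without them, pup endothelial Mest was at 104 CPM (28.4 to 266) and Grb10 at 208 CPM (89.9 to 410.1). Mest fell in stromal cells too, from 460 CPM (447 to 472) to 153 (134 to 175) by the pup, and in smooth muscle from 158 (146 to 170) to 23.3 (15.6 to 33.5). Neural Mest did not fall, at 443 CPM (415 to 471), 387 and 489 (410 to 579), and epithelial Mest lay at or below 24.7 CPM throughout, beside 13.2 to 25.6 CPM in immune cells.

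Peg3, a zinc-finger protein, was the member that rose furthest. In neural cells Peg3 was at 196 CPM (178 to 215) at E15, 302 (272 to 334) at E19 and 1247 (1119 to 1387) in the pup, 6.36-fold above E15. In smooth muscle it was at 351 CPM (334 to 369), 249.6 and 1035 (979 to 1093), 2.95-fold above E15, before 137 (96.7 to 188) in the adult. Stromal Peg3 was at 787, 795, 853 (806 to 901) and 352 CPM, the adult being at 219 CPM without cells that had mostly prenatal neighbours. Endothelial Peg3 was at 93.1, 95.3, 112 and 32.3 CPM, and immune Peg3 at 59.0, 56.7 and 39.5 CPM, the last being 11.2 CPM (3.06 to 28.8) without cells that had mostly prenatal neighbours. Columnar Peg3 fell from 253 CPM (239.8 to 267) to 69.9 (66.3 to 73.7) by the pup.

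Besides Peg3 in neural cells, Plagl1 (15.3 to 62.0 CPM) and Dlk1 (38.6 to 106 CPM) were higher in the pup, and 3 of 10 members had risen at least 2-fold (10.9% of all genes) and 2 at least 4-fold (3.59%). Without the 12 pup neural cells with mostly prenatal neighbours, Plagl1 was at 13.9 CPM and Dlk1 at 32.5 CPM, while Peg3 was still at 1137 CPM. The mix of neural cells moved with Peg3 as well. At E15 Peg3 was at 286 CPM (256 to 317) in cells with more Sox10 and at 86.8 CPM (68.6 to 108) in cells with more Elavl4 and Tubb3, which were nearly absent in the pup. Among cells with more Sox10 alone, Peg3 in the pup was at 1199.7 CPM (1056 to 1358), 4.2-fold above E15, and 3 of the 9 members tested were at least 2-fold higher in the pup (10.1% of all genes), namely Peg3, Meg3 and Dlk1. These markers were chosen after the data were seen.

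By region, Peg3 in smooth muscle was at 137 CPM (120.0 to 156) in E15 and 901 CPM (824 to 983) in pup stomach, and at 336 (309 to 364) and 1262 (1172 to 1358) in the GE-SCJ. The esophagus began higher, at 687 CPM (639.8 to 737), and was at 558 (430.0 to 713) in the pup, or 823 (576 to 1139) in the 8 cells without mostly prenatal neighbours. At E15 the esophageal level of Peg3 in smooth muscle was thus above that of the stomach by 2.32 on the log2 scale (2.11 to 2.54). Squamous Peg3 was also higher in the esophagus than in the GE-SCJ at each stage, at 174, 79.6, 174 and 58.0 CPM against 54.2, 24.1, 20.9 and 10.95 CPM, with no overlap of intervals. These intervals cover counting error only and not the spread between cells. In pup squamous cells of all regions, most of the 72 Peg3 UMIs left after thinning lay in few of the 121 cells. A single cell held 16 of them, so the pup difference rests on few cells. In contractile-marker cells of the pup, Peg3 was at 981 CPM in the GE-SCJ, 713 in the stomach and 301 in the esophagus, and mural-marker cells of the GE-SCJ held 2293 CPM.

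Plagl1, a zinc-finger transcription factor known to act on other imprinted genes, held its level in mesenchyme up to the pup and was lower in the adult. Plagl1 in stromal cells was at 612 CPM (598 to 626), 654, 696 (654 to 739.5) and 305 (244 to 377), the last being 121 without cells that had mostly prenatal neighbours. In smooth muscle Plagl1 was at 343, 401, 361 and 101 (66.9 to 146). It fell in endothelial cells, from 411 CPM (367 to 459) at E15 and 492 at E19 to 77.4 (35.4 to 147) in the pup. Columnar Plagl1 was at 103, 100.1, 50.3 and 101 CPM and squamous Plagl1 at 138, 122, 64.9 and 80.9 CPM. Immune Plagl1 was at 40.3, 54.3 and 26.3 CPM, so neural Plagl1 at E15, 15.3 CPM, lay below background.

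Ndn encodes Necdin, a growth suppressor of the MAGE family known from neurons. Ndn was highest in mesenchymal and neural cells and changed little there up to the pup: 159, 164, 119 and 147 CPM (97.9 without adult cells with mostly prenatal neighbours) in stromal cells, 132, 124, 86.1 and 64.7 CPM in smooth muscle, and 173, 158 and 117 CPM in neural cells. In columnar cells Ndn fell from 20.3 CPM (16.6 to 24.4) to 3.39 (2.63 to 4.31), and in squamous cells from 20.4 (14.5 to 28.0) to 6.96 (3.59 to 12.2), beside 5.90 and 1.65 CPM in immune cells at the same stages. Among adult endothelial cells Ndn was listed at 0 UMIs. As for Dlk1 in these cells, the interval reaches 59.6 CPM, above the E15 level of Ndn there, 34.9 CPM.

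The adult levels in columnar, stromal and smooth muscle cells depended on the cells with mostly prenatal neighbours. Adult columnar H19 was at 2159.8 CPM (2054 to 2269.8) in all 26 cells and 364 CPM in the 14 cells without them, and Igf2 was at 387 and 61.7 CPM. Adult stromal H19 was at 818 CPM in all cells and 207 CPM without them. The same removal took adult stromal Cdkn1c from 416 to 92.1 CPM, Mest from 122 to 34.5 CPM, Plagl1 from 305 to 121 CPM and Dlk1 from 402 to 127 CPM, while Meg3 was at 829 and 806 CPM. Stromal cells of the adult esophagus, 31 in number, held 49.5 CPM of Cdkn1c, 30.95 CPM of Mest and 43.3 CPM of Plagl1. In esophageal stroma 7 of 10 members were at least 4-fold below E15 in the adult (4.85% of all genes), and in esophageal smooth muscle 8 of 10 were (5.69%).

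**Figure D5:**
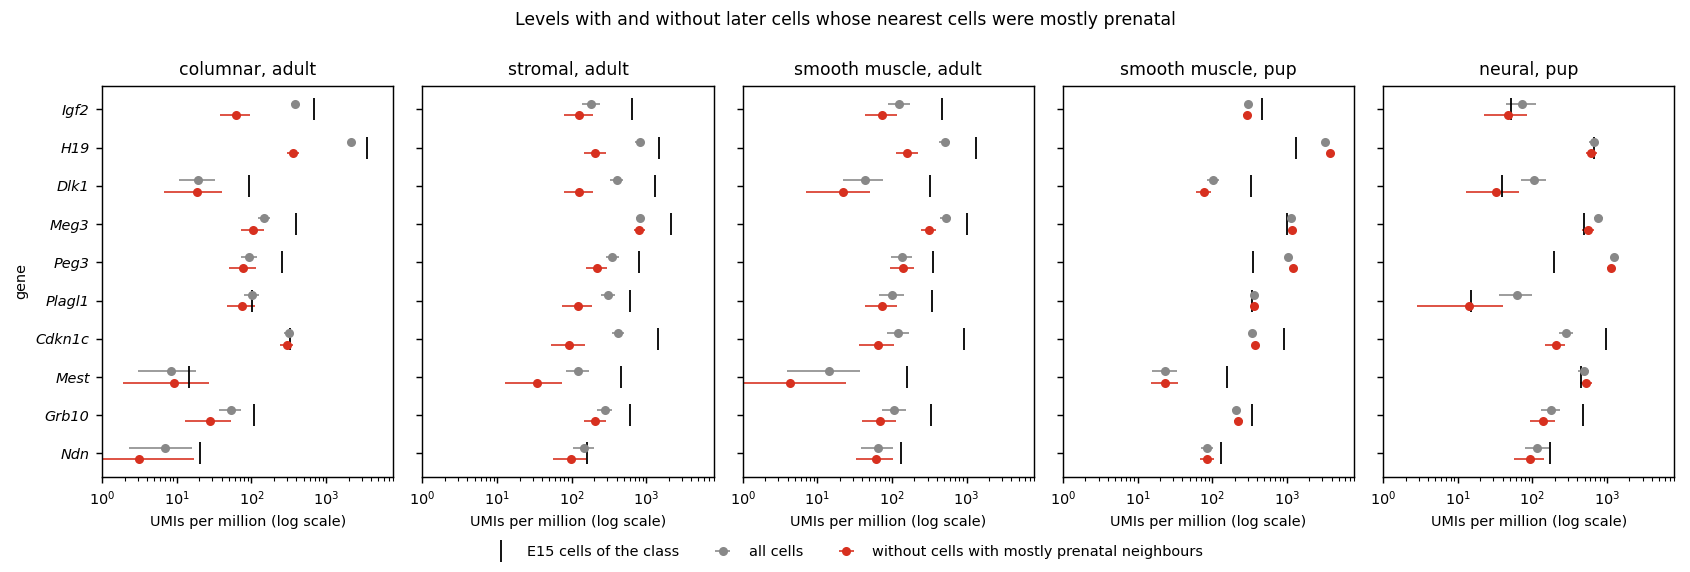
Levels of the 10 genes (CPM, log axis) in 5 class and stage groups, with all cells in grey and without cells whose neighbours were mostly prenatal in red. Bars are exact 95% Poisson intervals and black ticks are the E15 levels of the class. The red points of H19 and Igf2 in adult columnar cells lie far below the grey, at 364 and 61.7 CPM, and those of H19 and Peg3 in pup smooth muscle stay right of the E15 ticks.

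The second stromal label, whose cells carried mesothelial markers, summed to 11275 CPM (10906 to 11653) of the 10 genes in 26 cells of E15, to 9336 CPM in 60 cells of E19 and to 3667 CPM (3476 to 3865) in 52 cells of the pup. From E15 to the pup 4 of 10 members were at least 4-fold lower there (1.98% of all genes). H19 fell from 2981 to 278 CPM, Dlk1 from 866 to 82.2 CPM, Peg3 from 1268 to 215 CPM and Mest from 548 to 129.9 CPM. Meg3 was at 1806 and 1445 CPM and Plagl1 at 666 and 451 CPM. H19 per Igf2 was 2.04 at E15 and 0.621 (0.482 to 0.797) in the pup, so here Igf2, at 448 CPM, had more UMIs than H19.

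Across the 29 groups of class and stage with at least 20 cells, the members were alike to different degrees. As a description, Pearson's r of log2(CPM + 10) was 0.803 for Igf2 and H19, 0.804 for Dlk1 and Meg3, 0.860 for Peg3 and Ndn, 0.831 for Mest and Grb10, and 0.121 for H19 and Mest. Other pairs that are not neighbours reached 0.849 (Cdkn1c and Ndn) and 0.836 (Meg3 and Peg3). High likeness was thus not particular to genes of a shared domain. The groups share a capture and differ in depth. Of 11672 genes with at least 500 UMIs, those most like each member were Rian (0.977) and Rab34 (0.936) for Meg3, Zfp354c (0.966) and Myh10 (0.937) for Ndn, 2700081O15Rik (0.948) and Armcx4 (0.943) for Grb10, and Armcx6 (0.906) and Nrk (0.892) for Dlk1. They were Serf1 (0.902) and Bex3 (0.897) for Cdkn1c, Ptpdc1 (0.896) and Tenm3 (0.889) for Peg3, Bambi (0.880) and Armcx4 (0.878) for Mest, and Sfr1 (0.853) and Ccn4 (0.847) for Plagl1. H19 was most like Zfp618 (0.786) and Magi3 (0.764), and Igf2 most like Farp1 (0.742) and Nt5c3b (0.733).

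Other imprinted genes were counted in the same way. Of 60 further imprinted genes listed, 58 were counted and 45 had at least 50 UMIs in columnar cells of E15 and pup. Of these, 6 were at least 4-fold higher at E15 (Igf2os, Peg10, Usp29, Nnat, Zdbf2 and Dcn; 4.91% of all genes were) and 1 in the pup, Kcnq1 (3.62%), with a median log2 ratio of 0.53 beside 0.38 over all genes. In stromal cells 3 of 49 were higher at E15 (4.24% of all genes) and 1 in the pup (2.4%), which is near the share of all genes, with a median of 0.32 beside 0.16. Nnat, a small membrane protein, went from 71.8 to 12.9 CPM in stroma, Klf14 from 6.76 to 1.36 CPM (log2 ratio 2.31, interval 0.41 to 5.38) and Magel2 from 10.0 to 0 CPM. Tnfrsf23 went from 4.21 to 17.7 CPM, Tfpi2 from 4.48 to 17.7 CPM and Qpct from 19.1 to 68.8 CPM.

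The genes around the IGF signal went different ways in stroma. Of 14 listed, 12 were tested, and 1 was at least 4-fold higher at E15 (4.24% of all genes) and 0 in the pup (2.4%). These numbers are too small to set the list apart from all genes. The gene higher at E15 was Hmga2, a fetal chromatin protein, at 117 and 10.2 CPM. Igf2bp1, an RNA-binding protein of fetal tissue that binds Igf2 RNA, went from 51.5 to 12.9 CPM and its relative Igf2bp3 from 74.3 to 46.3 CPM. The insulin receptor gene Insr went from 32.1 to 76.3 CPM, and the receptor substrates Irs1 and Irs2 from 30.4 to 55.2 and from 61.1 to 108 CPM. Of 10 cell cycle genes, 8 were tested. The proliferation markers Top2a (324 to 58.6 CPM) and Mki67 (163 to 38.8 CPM) were at least 4-fold higher at E15 (4.24% of all genes). Cdkn1a (16.3 to 83.8 CPM), a relative of Cdkn1c, was at least 4-fold higher in the pup (2.4%). Cdkn1b went from 41.2 to 68.8 CPM, Cdkn2c from 17.1 to 8.17 CPM and Cdkn2d from 31.9 to 23.8 CPM.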

How the data were processed

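The deposited matrix holds raw UMI counts per gene and cell, which the authors made with Cell Ranger 6.1.1 and the 10x mouse reference on GRCm38 and filtered by genes, UMIs and mitochondrial share. The authors also deposited each cell's class label, phase call, CellPlex tag and percent of mitochondrial UMIs, at most 19.7%. Tags and UMI totals were the same in both deposited lists for all 7808 cells. No further doublet removal was done here. The 10 members and all gene lists were chosen with earlier results of these data known.

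Counts were summed by class, stage and region. CPM carries exact Poisson and shares exact Clopper-Pearson 95% intervals. Ratios were computed from the sums as they are, with a sum of 0 set at 3 counts, over genes with at least 50 UMIs and groups of at least 20 cells, and called at 4-fold or 2-fold. Without cells that had mostly prenatal neighbours a lower minimum of cells held, which let in 14 adult columnar and 17 adult endothelial cells. With a single pooled sample per group, no test was run. All members are named. For likeness, the 2 genes of highest Pearson's r are named, and from each list the 3 largest and the 3 smallest stromal ratios of E15 over pup. Neighbours (15) were searched in 30 principal components of 2000 variable genes (Scanpy 1.11.5, seed 1). Python 3.11.15, NumPy 2.4.6, SciPy 1.17.1 and pandas 2.3.3 were used. The computation of ratios was checked on simulated Poisson sums. These hold no spread between cells, so the intervals were not tested against that spread. Alternatives changed the fold, the minimum, cell filters, regions, the mean over cells, 1 UMI added to each sum and subtraction of the immune level. Splits by mural markers, by Sox10 against Elavl4 and Tubb3 and by squamous label, and regional levels, H19 shares and pup levels over immune cells without doubtful cells, were added after the data were seen. A further split of the neural class is not reported here.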

Additional observations from a re-analysis of the deposited data

Results flagged for a closer look

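From E15 to the pup, 5 members had ratios of opposite direction in different classes, each at least 2-fold when all cells were counted. For Dlk1, Meg3 and Plagl1 the opposite direction rested on few cells. The differences between classes were not tested, since each class and stage is a single pooled sample. The values are log2 ratios of E15 over pup, so a negative value is a higher level in the pup. H19 had -1.29 in smooth muscle and 4.04 in columnar cells (-1.48 and 4.69 without cells with mostly prenatal neighbours). Dlk1 had -1.45 in neural cells, 1.68 in smooth muscle and 2.26 in columnar cells. Without the 12 pup neural cells with mostly prenatal neighbours, the neural value of Dlk1 was 0.25. Meg3 had -1.97 in immune cells and 1.46 in squamous cells. A single pup immune cell held 292 UMIs of Meg3, and without it the immune value was 0.62 (0.17 to 1.08), so that the opposite direction was gone. The E15 immune cell with the most Meg3, at 44 UMIs, was kept in this value. Peg3 had -2.67 in neural cells, -1.56 in smooth muscle and 1.86 in columnar cells (-2.54, -1.78 and 2.05 without cells with mostly prenatal neighbours). Plagl1 had -2.02 in neural cells, 1.09 in squamous cells, 1.03 in columnar cells and 2.41 in endothelial cells. Without the same 12 cells, the neural value of Plagl1 was 0.13.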

How the results depend on the processing

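No paired analysis was possible because the groups are single pooled samples without replicate numbers to pair. The counts of members at least 4-fold higher at E15 in squamous and endothelial cells against the adult (6 each) kept within 1.5 times under all alternatives run. At 2-fold, the counts against the pup were 2 in stromal cells, 3 in smooth muscle, 7 in squamous, 8 in columnar, 4 in endothelial, 2 in neural and 1 in immune cells, and against the adult 8 in stromal cells, 9 in smooth muscle and 5 in columnar cells. Without cells with mostly prenatal neighbours, the 4-fold counts were 2 in smooth muscle, 1 in neural and 1 in immune cells against the pup, and 6 in stromal cells, 7 in smooth muscle and 4 in columnar cells against the adult. With the mean CPM over cells, they were 2 in squamous, 1 in endothelial and 1 in neural cells against the pup, and 4 in stromal and 0 in columnar cells against the adult. Leaving out, for each gene, the top 1% of cells by its UMIs, they were 1 in neural cells against the pup, and 3 in stromal cells, 6 in smooth muscle and 2 in columnar cells against the adult. With the immune level subtracted, they were 2 in squamous cells against the pup, and 3 in stromal cells, 7 in smooth muscle and 4 in columnar cells against the adult. Subtraction also moved the count of columnar members 2-fold higher at E15 than at E19 from 3 to 9, and a 4-fold limit moved it to 0. Shares of all genes under subtraction, mean CPM, the cell filters or the limit to esophagus and GE-SCJ are not given. Nor are they given without the top 1% or 5%, or with the first squamous label alone. Those without cells with mostly prenatal neighbours are not given against the pup. For the adult they were 3.99% in stromal cells, 5.17% in smooth muscle and 5.2% in columnar cells. Whether the moves in settings without such shares are particular to the members was thus not tested. With esophagus and GE-SCJ only, the counts were 1 in neural cells against the pup and 2 in columnar cells against the adult. Keeping only cells of 1000 or more UMIs and 10% or less mitochondrial share, the stromal count against the adult was 1. Leaving out the deepest 5% of cells, the neural count against the pup was 1. With the first squamous label alone, the squamous count against the pup was 2. The 1 member 2-fold higher in pup stomach than esophageal stroma became 4 by mean CPM, 2 without the top 1%, 4 without the top 5% and 0 at 4-fold. Where the members tested or the cells were fewer by construction, that is part of the change, and other causes were not tested. Of single ratios under single alternatives, 919 moved by less than their counting interval and 225 moved further. A further 7, at least 2-fold as reported, changed sign. Without cells with mostly prenatal neighbours, the log2 ratio of E15 over pup went from -2.02 to 0.13 for Plagl1 and from -1.45 to 0.25 for Dlk1 in neural cells, and from -1.97 to 0.66 for Meg3 in immune cells. Without the top 1% of cells, immune Meg3 was at 0.13. With esophagus and GE-SCJ only, neural Dlk1 was at 0.44. With the immune level subtracted, squamous Mest went from 1.66 to -0.15, and Peg3 in endothelial cells against the adult from 1.53 to -0.51. Another 31 values of ratios under 2-fold changed sign. Some endothelial counts could not be run, since too few cells were left. Against the pup these were without cells with mostly prenatal neighbours (9 pup cells left), without the top 5% and by region. Against the adult it was without the top 5%. Depth limits the adult endothelial values, where 21 cells held 35 UMIs of the 10 genes together, and the adult immune level subtracted rests on 6 cells.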
